A study of Mus musculus with 6 samples.

Results

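The 9 genes described here code for the nuclear receptors and basic helix-loop-helix factors that set the positive side of the circadian clock and the loop that controls it. They were the REV-ERB genes Nr1d1 and Nr1d2, the ROR genes Rora and Rorb, the positive limb genes Arntl, Clock and Npas2, and the E-box repressor genes Bhlhe40 and Bhlhe41. They were taken by name from the 32285 genes counted, by a rule that used no measured value, although earlier results of these data were known when they were chosen, and all 9 were present. Their levels were read in 8757 astrocytes and 2260 pericytes out of 13546 cell barcodes. An astrocyte was a barcode with at least 20 UMIs (unique molecular identifiers, each standing for 1 captured transcript) of Slc1a2 and Slc1a3 together and at most 3 of Vtn and Rgs5 together. A pericyte, the contractile mural cell of capillaries, was a barcode with at least 10 UMIs of Vtn and Rgs5 and at most 5 of Slc1a2 and Slc1a3.

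The study asked how the transcriptome of amygdala astrocytes differed between mice at successive stages of contextual fear learning. It used wildtype mice aged 8 to 12 weeks, which the labels give as male C57BL/6N and the methods as C57BL/6NCrSlc, with both sexes used across the study. They were habituated to the chamber on 3 days for 15 min a day. On day 4, FC mice were given foot shocks (1 or 3 per the methods, 2 s, 0.3 mA) and NoFC mice none. A day later, shocked mice were either returned to the chamber for 3 min (FR, fear recall) or left in the home cage (NoFR). Per the methods, mice were perfused 90 min after behaviour began. NoFR mice had no session on the day of perfusion and were taken, per the paper, a day after conditioning. The tissue was dissociated with inhibitors of transcription and translation, and cells were sorted with antibodies to ACSA-2, CD11b, CD45 and O1. Antibodies carrying DNA barcodes (hashtags) marked each mouse before cells were pooled into 3 libraries. There were 4 groups of 4 mice, 16 in all, with 2 mice of each group in library 1 and the rest spread unevenly over libraries 2 and 3.

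The labels call the cells astrocytes, and the sorted material held a second class. Per the methods, the study took pericytes out by Pdgfrb before it analysed the astrocytes. Transcripts of the water channel gene Aqp4 were found in 88.8% of the gated astrocytes and 2.57% of the pericytes, and those of the gap junction gene Gja1 in 93.4% and 7.04%. Kcnj8 and Abcc9, the channel subunit genes that mark pericytes, were found in 92.1% and 96.8% of the pericytes against 0.514% and 0.697% of the astrocytes. Of 8 astrocyte markers, 7 lay in pericytes at 0 to 1.83% of their astrocyte level, and Atp1b2 lay at 82.8%. Per the paper, ATP1B2 is the protein that the ACSA-2 antibody used in sorting binds. The classes differed in depth, with a median of 9891 UMIs per astrocyte and 5006 per pericyte. Hashtags tied 45.3% of the pericytes (1024 cells) but 3.83% of the astrocytes (335 cells) to a listed mouse, so comparisons between mice had far more cells in pericytes. Libraries 1 and 2 shared 8 barcodes, 1 and 3 shared 7, and 2 and 3 shared 3, which were treated as different cells.

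In the mammalian clock, ARNTL (BMAL1) pairs with CLOCK or with its relative NPAS2, and the pair binds E-box sequences and switches on the period, cryptochrome and REV-ERB genes. REV-ERB proteins in turn repress Arntl, Clock and Npas2 through RORE elements, at which ROR proteins activate. BHLHE40 and BHLHE41 (DEC1 and DEC2) compete at E-boxes and dampen the same targets. In most tissues the REV-ERB transcripts and the Arntl transcript therefore peak at opposite times of day. Most peripheral cells carry such a clock, and in brain the astrocyte clock has been studied more than that of pericytes.

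The genes lie on 8 chromosomes (positions in the GRCm38 build, with the strand of the gene). Nr1d1 is at chr11:98767932-98775333 (minus) and Nr1d2 at chr14:18204054-18239127 (minus). Rora is at chr9:68653786-69388246 (plus) and Rorb at chr19:18930605-19111196 (minus). Arntl is at chr7:113207465-113314126 (plus), Clock at chr5:76209868-76304792 (minus) and Npas2 at chr1:39193731-39363236 (plus). The DEC genes are both on chromosome 6, Bhlhe40 at chr6:108660629-108666925 (plus) and Bhlhe41 at chr6:145858243-145865558 (minus).

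Because these factors act on one another through short DNA elements, their RefSeq promoter windows (250 bases before to 50 after a start, GRCm38.p6) were searched on both strands for 4 elements. There were 12 windows for 8 of the 9 genes. The RORE core TAGGTCA was found in 2.61% of all 32851 windows, the E-box CACGTG in 7.15%, the E-box variant CACGTT in 4.68% and the D-box TTATGTAA in 0.938%. Among the 9 genes the 4 matches below were found, with the element in capitals and 11 bases on each side, 5′ to 3′ on the strand of the gene. No window held TTATGTAA.
Arntl, TAGGTCA starting 31 bases after its second start, in an annotated untranslated exon at chr7:113207530-113207558: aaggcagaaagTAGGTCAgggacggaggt
Nr1d1, CACGTT read on the opposite strand, 28 bases before the start and outside the annotated gene, at chr11:98775389-98775416: gcacagatctcAACGTGccggctgctgg
Bhlhe41, CACGTG 153 bases before the start, just outside the annotated gene, at chr6:145865557-145865584: ggtacgttccgCACGTGagctgggtgct
Rorb, CACGTT read on the opposite strand, 234 bases before its second start and inside the annotated gene, at chr19:19001335-19001362: gaatacacagcAACGTGattcatgggga
The Arntl match is the element through which REV-ERB and ROR proteins act, and the Nr1d1 match is of the kind the ARNTL pair binds. A match describes these letters only and is not a measured binding site.

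All 9 genes differed in level between astrocytes and pericytes, 6 of them higher in astrocytes and 3 higher in pericytes. Levels are counts per 1000000 UMIs (CPM) of the summed cells of a class, scaled by edgeR's TMM method, and each is the mean ± SD of the 3 libraries. Differences are log2 fold changes of astrocytes over pericytes with their standard errors (SE), and p-values are those of edgeR's quasi-likelihood test with Benjamini-Hochberg adjustment over 15361 genes. In this comparison 79.6% of the genes tested passed an adjusted p of 0.05, so passing it set the 9 genes apart from few others, and the sizes and directions carry the description.

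Both REV-ERB genes had a higher CPM in pericytes, which is a share of the UMIs of a class and not a count per cell. Nr1d1 was at 223 ± 18.4 CPM in pericytes and 89.7 ± 3.46 CPM in astrocytes (n = 3 libraries), a log2 difference of -1.32 (SE 0.05, edgeR adjusted p = 2.59e-18), or 2.49-fold higher in pericytes. Nr1d2 was at 159 ± 20.7 against 104 ± 3.70 CPM, a log2 difference of -0.62 (edgeR adjusted p = 1.09e-09). Both genes were higher in pericytes in all 3 libraries. Clock, the partner of Arntl, went the same way, at 122 ± 4.48 CPM in pericytes and 81.7 ± 2.42 CPM in astrocytes (log2 -0.59, edgeR adjusted p = 2.45e-10).

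Both ROR genes and the other positive limb genes lay higher in astrocytes. Rorb was at 1379 ± 30.5 CPM in astrocytes and 73.9 ± 5.49 CPM in pericytes, 18.7-fold higher (log2 4.23, edgeR adjusted p = 4.89e-28). Rora, its widely expressed relative, was at 2529 ± 144 against 1220 ± 64.0 CPM, 2.07-fold higher (log2 1.05, edgeR adjusted p = 1.66e-15). The span between classes was thus wide for Rorb and narrow for Rora. Npas2 was at 262 ± 27.0 CPM in astrocytes and 17.7 ± 0.352 CPM in pericytes, 14.7-fold higher (log2 3.87, edgeR adjusted p = 2.02e-25). Arntl was at 64.3 ± 4.67 against 24.8 ± 6.28 CPM (log2 1.38, edgeR adjusted p = 5.15e-13). Of the 3 positive limb genes, then, Npas2 and Arntl were higher in astrocytes and Clock in pericytes in these pooled sums. Each library pools mice, so these SDs and tests do not measure the spread between mice. Over the mice given below, pericyte Arntl ran from 2.19 to 91.7 CPM. In NoFR mice its mean was 59.7 CPM in pericytes and 50.1 CPM in astrocytes, scaled in separate fits. In the other groups the astrocyte mean was higher.

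The DEC genes were also astrocyte-high. Bhlhe40 was at 77.8 ± 3.69 CPM in astrocytes and 20.1 ± 5.04 CPM in pericytes (log2 1.94, edgeR adjusted p = 8.24e-17). Bhlhe41 was at 58.8 ± 2.29 against 6.43 ± 2.43 CPM (log2 3.17, edgeR adjusted p = 1.92e-18). The pericyte level was 25.9% of the astrocyte level for Bhlhe40 and 10.9% for Bhlhe41, compared with 38.6% for Arntl, 6.78% for Npas2 and 5.36% for Rorb. These lie above the 0 to 1.83% of the 7 astrocyte markers, and below the 82.8% of Atp1b2.

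**Figure D1:**
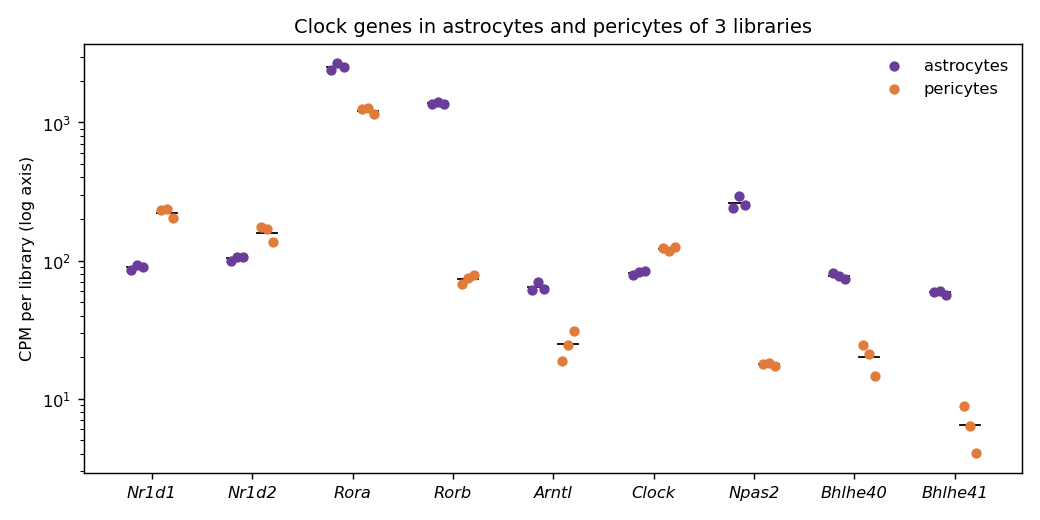
Level of each of the 9 genes in astrocytes and pericytes, in CPM on a log axis, with 1 point per library (3 libraries) and the mean of each class. Nr1d1, Nr1d2 and Clock lie higher in pericytes and the other 6 genes in astrocytes, with the widest gaps for Rorb (18.7-fold) and Npas2 (14.7-fold).

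The share of single cells with at least 1 UMI depends on depth, so cells were also thinned to 4000 UMIs each, which left 8024 astrocytes and 1709 pericytes. At full depth, 50.1% of astrocytes and 60.2% of pericytes held a UMI of Nr1d1, and after thinning 27.3% and 54.9% did. The thinned shares of Nr1d2 were 30.2% in astrocytes and 45.9% in pericytes, and those of Clock 23.9% and 38.0%. For these 3 genes thinning widened the gap or turned it to the direction of the CPM, since at full depth the Nr1d2 shares were 56.1% and 51.9% and the Clock shares 44.3% and 43.5%. Rora was near universal in both classes, at 98.7% and 95.4% after thinning. Rorb was found in 96.7% of thinned astrocytes and 19.7% of thinned pericytes. Npas2 was found in 53.7% and 5.79%, Arntl in 19.7% and 8.54%, Bhlhe40 in 24.4% and 7.20%, and Bhlhe41 in 19.4% and 2.63%. The unthinned pericyte share of Bhlhe41, 3.27%, lay between those of the astrocyte markers Aqp4 and Gja1 in the same cells and that of Npas2, 7.35%, lay just above them, so these shares alone do not set them apart from stray RNA. The unthinned pericyte share of Bhlhe40 was 8.85%, that of Arntl 10.2% and that of Rorb 22.8%.

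The rest of the clock split between the classes as well. Of 5 period and cryptochrome genes tested, 2 were higher in astrocytes and 2 lower, the widest being Cry2 (log2 1.58) and Per3 (log2 1.39). Of the 4 genes of Nfil3 and the PAR bZIP factors, which act at D-boxes, 1 was higher and 3 were lower, with Nfil3 at log2 -3.75 and Dbp at -1.11. Nfil3 was near the floor. In pericytes tied to a mouse it had 1, 0, 3 and 0 UMIs in NoFC, FC, NoFR and FR. In astrocytes of the mice with at least 5 such cells it had 0 UMIs in each group. Of 12 other clock regulators, 5 were higher and 6 lower, with Usp2, a deubiquitinase gene, at log2 3.59. Of 7 cofactors of REV-ERB and ROR proteins, 3 were higher and 4 lower, led by the coactivator gene Ppargc1a (log2 6.09) and Tbl1xr1 (log2 3.15), part of the corepressor complex. Of 6 tested genes known as REV-ERB or ROR targets, a list that holds Arntl, Clock and Npas2 themselves, 3 were higher and 2 lower, led by the fatty acid binding protein gene Fabp7 (log2 5.68) and Npas2. The list medians were 0.12, -1.11, -0.33, -0.11 and 0.75 in this order, against 0.10 over all genes tested.

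Between mice, the REV-ERB genes were lowest in pericytes of the NoFR group, the shocked mice left in the home cage, and the positive limb genes Arntl and Npas2 were highest there. Pericytes were summed per mouse, 36 to 110 cells and 187654 to 629179 UMIs each, and tested with all 4 groups and the library in 1 edgeR fit. Behaviour was run in the light phase, between 07:00 and 19:00, with conditions run side by side per the methods, but the hour at which each mouse was perfused was given by no source read here, so hour and group cannot be told apart. At edgeR's default filter 6539 genes were tested, among them 6 of the 9 genes. Arntl, Npas2 and Bhlhe41 passed only a lower filter, at a minimum count of 3 in place of 10, which was added after the data were seen and tests 10251 genes.

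Nr1d1, the main REV-ERB gene of the clock loop, was at 342, 298, 388 and 365 CPM in pericytes of NoFC mice 1 to 4. In FC mice it was at 262, 315, 282 and 310 CPM. In NoFR mice it was at 98.8, 183, 205 and 155 CPM. In FR mice it was at 207, 314, 254 and 281 CPM, a range that overlapped with those of NoFC and FC. Every NoFR mouse was below every one of the other 12 mice, although the highest NoFR mouse (205 CPM) and the lowest other mouse (207 CPM, FR 1) were close. How many of all tested genes separate in this way was not counted. Group means ± SD (n = 4 mice) were 348 ± 38.1 for NoFC, 292 ± 25.0 for FC, 161 ± 46.0 for NoFR and 264 ± 45.2 CPM for FR. Nr1d1 fell in NoFR against NoFC by 1.16 on the log2 scale (SE 0.16, edgeR adjusted p = 4.71e-06), a 2.23-fold lower level. Against FC it fell by 0.92 (SE 0.18, edgeR adjusted p = 0.00292), a call that was lost without FC 2 (adjusted p = 0.0604) or NoFR 1 (0.139). FR against NoFR was at log2 0.74 (SE 0.18, edgeR adjusted p = 0.0775) and FR against NoFC at -0.41 (SE 0.14, edgeR adjusted p = 0.528), and neither passed, though without NoFR 3 the former did (adjusted p = 0.0407).

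Nr1d2, the second REV-ERB gene, was at 249.98, 176, 257 and 206 CPM in NoFC mice and at 237, 247, 201 and 224 CPM in FC mice. In NoFR mice it was at 141, 109, 126.5 and 127 CPM, and in FR mice at 196, 227, 222 and 145 CPM. The 4 NoFR mice were again below all 12 others, here with 141 against 145 CPM at the boundary, a separation not counted over all genes. The group means were 222 ± 38.2, 227 ± 20.2, 126 ± 13.0 and 197 ± 37.3 CPM (SD, n = 4 mice) in the order NoFC, FC, NoFR, FR. Nr1d2 fell in NoFR against NoFC by 0.74 (SE 0.17, edgeR adjusted p = 0.0127). NoFR against FC was at log2 -0.69 (SE 0.19, edgeR adjusted p = 0.0906) and FR against NoFR at 0.54 (SE 0.19, edgeR adjusted p = 0.570), the former of which passed without FR 4 (adjusted p = 0.0408). The Nr1d2 call was lost when any of NoFC mice 1, 3 and 4 or NoFR mice 1 and 2 was left out, with adjusted p between 0.0518 and 0.125.

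Of the 6 genes at the default filter, Nr1d1 and Nr1d2 were thus called in NoFR against NoFC, where 1.07% of all genes tested were called and 0.581% were called lower. In NoFR against FC only Nr1d1 was called, where 0.443% of all genes were and 0.306% were called lower. Of the same 6 genes, no overlap between the mice of both groups was seen for Nr1d1, Nr1d2 and Bhlhe40 (lower) in NoFR against NoFC, where 2.58% of all tested genes were lower without overlap. In NoFR against FC this held for Nr1d1 and Nr1d2, against 2.71% of all tested genes. In FR against NoFR the same genes were higher without overlap, against 1.99% of all tested genes. The share of genes with all NoFR mice below every other mouse was not counted.

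**Figure D2:**
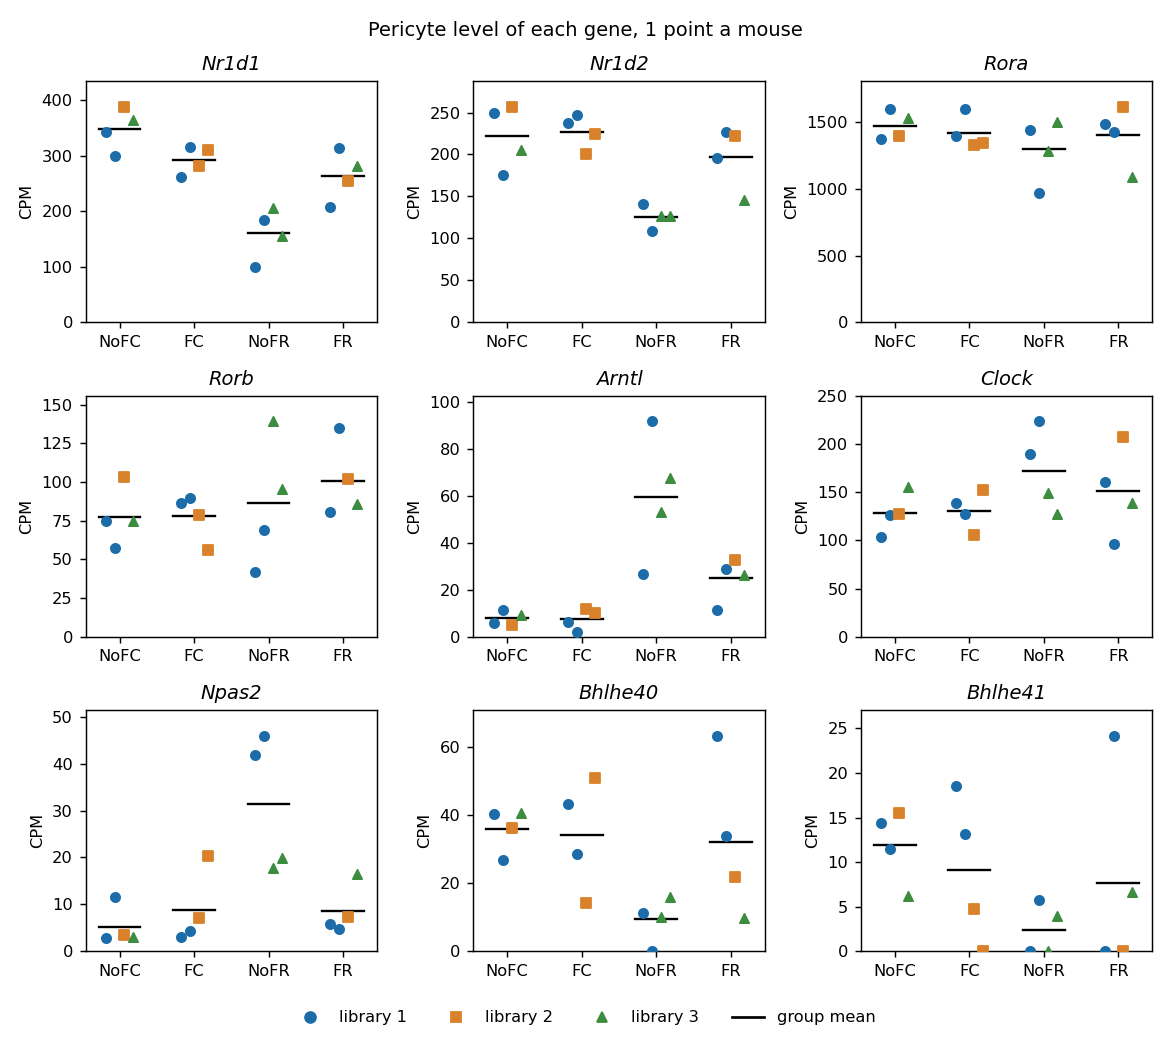
Level of each of the 9 genes in pericytes of the 16 mice, in CPM, with 1 point per mouse, 4 mice in each of the NoFC, FC, NoFR and FR groups, shape and colour for the library and a line at the group mean. The 4 NoFR mice lie below the other 12 for Nr1d1 and Nr1d2 and mostly above them for Arntl (3 of 4 mice). The share of all genes that separate in this way was not counted.

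Arntl moved the other way. It was at 5.75, 11.5, 5.17 and 9.35 CPM in pericytes of the 4 NoFC mice, from 2, 3, 3 and 3 UMIs. In FC mice it was at 6.16, 2.19, 11.9 and 10.2 CPM. In NoFR mice it was at 26.6, 91.7, 53.1 and 67.5 CPM, from 7, 16, 21 and 17 UMIs, and in FR mice at 11.5, 29.0, 32.7 and 26.4 CPM. All NoFR mice were above all NoFC and FC mice, and 3 of the 4 were above every other mouse. Of the 6539 genes at the default filter, which leaves Arntl out, 2.36% were higher without overlap in NoFR against NoFC. In NoFR against FC the share was 1.93%. The group means were 7.94 ± 3.00, 7.62 ± 4.35, 59.7 ± 27.2 and 24.9 ± 9.30 CPM (SD, n = 4 mice), from 11, 10, 61 and 25 UMIs in all. In astrocytes, scaled in a separate fit, Arntl was at 64.3 CPM as given above. At the lower filter, added after the data were seen, the calls for Arntl depend on how it was admitted. There Arntl was at log2 2.99 in NoFR against NoFC (SE 0.49, edgeR adjusted p = 6.04e-05), 7.95-fold. Against FC it was at log2 3.03 (SE 0.55, edgeR adjusted p = 0.000957). Without NoFR 2 the second call was lost (edgeR adjusted p = 0.0571).

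The intermediate FR level of Arntl did not pass the test in either direction. FR against NoFC was at log2 1.77 (SE 0.53, edgeR adjusted p = 0.482), FR against FC at 1.81 (SE 0.56, edgeR adjusted p = 0.771) and FR against NoFR at -1.22 (SE 0.42, edgeR adjusted p = 0.748). After TMM scaling the 4 FR mice did not overlap with the 4 NoFC mice, though FR 1 and NoFC 2 were both at 11.5 CPM. Without TMM scaling they overlapped, with the lowest FR mouse at 10.46 CPM and the highest NoFC mouse at 10.54 CPM. Of the genes at the default filter, 1.85% were higher without overlap in this pair. By share of cells, Arntl was found in 3.31% of NoFC, 3.68% of FC, 20.3% of NoFR and 8.69% of FR pericytes on average over mice, and in 3.57%, 2.31%, 16.3% and 8.06% of cells thinned to 4000 UMIs.

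Npas2, the alternative partner of ARNTL, was at 2.87, 11.5, 3.45 and 3.12 CPM in NoFC mice and at 3.08, 4.38, 7.17 and 20.4 CPM in FC mice. In NoFR mice it was at 41.8, 45.9, 17.7 and 19.9 CPM, and in FR mice at 5.75, 4.83, 7.27 and 16.5 CPM. The NoFR mice lay above all NoFC and FR mice, and 2 of them above all others, while FC 4 reached into their range. Of the genes at the default filter, which leaves Npas2 out, 2.36% were higher without overlap in NoFR against NoFC. In FR against NoFR, 1.56% were lower without overlap. These levels rest on 7, 10, 31 and 9 UMIs in all for NoFC, FC, NoFR and FR. At the lower filter, added after the data were seen, the call for Npas2 depends on how it was admitted. There Npas2 was at log2 2.76 in NoFR against NoFC (SE 0.66, edgeR adjusted p = 0.0189). Leaving out NoFC mouse 1, 3 or 4 or NoFR mouse 1 or 2 lost the call, with edgeR adjusted p between 0.100 and 0.194. NoFR against FC was at log2 2.29 (SE 0.69, edgeR adjusted p = 0.197) and FR against NoFR at -1.77 (SE 0.63, edgeR adjusted p = 0.764).

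Clock, the third positive limb gene, had group means of 128, 131, 173 and 151 CPM (NoFC, FC, NoFR, FR), and its mice overlapped between all groups. It was at log2 0.47 in NoFR against NoFC (SE 0.20, edgeR adjusted p = 0.425) and 0.51 against FC (SE 0.22, edgeR adjusted p = 0.526). At the lower filter 0.615% of all genes were called in NoFR against NoFC (0.244% higher) and 0.254% in NoFR against FC. Arntl and Npas2 came through that filter by their NoFR mice, so their calls there depend on how they were admitted. With no filter beyond a count above 0, an alternative that admits genes whatever their group, edgeR's adjusted p in NoFR against NoFC was 4.65e-07 for Arntl and 0.00468 for Npas2. That fit gave smaller p-values at a like fold change and SE. Nr1d1 was there at log2 -1.18 (SE 0.16, edgeR adjusted p = 1.72e-09), and at -1.16 (SE 0.16, edgeR adjusted p = 4.71e-06) at the default filter. The p-values without a filter therefore do not compare directly with the filtered ones.

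**Figure D3:**
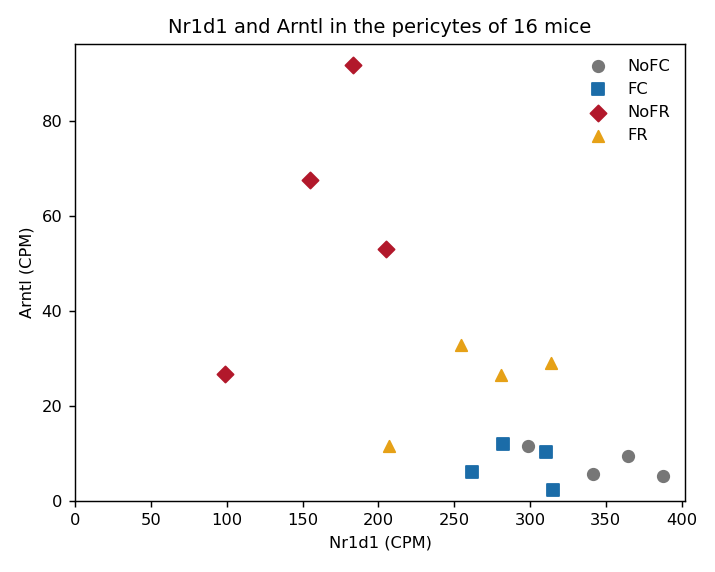
Nr1d1 (horizontal axis, CPM) against Arntl (vertical axis, CPM) in pericytes, with 1 point per mouse, 16 mice in 4 groups marked by shape and colour. The NoFC and FC mice sit at high Nr1d1 and Arntl below 12 CPM, the NoFR mice at 98.8 to 205 CPM of Nr1d1 and 26.6 to 91.7 CPM of Arntl, and the FR mice at 207 to 314 CPM of Nr1d1 and 11.5 to 32.7 CPM of Arntl.

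The DEC genes had their lowest mean levels in NoFR. Bhlhe40 was at 40.2, 26.8, 36.2 and 40.5 CPM in NoFC mice and at 43.2, 28.5, 14.3 and 50.9 CPM in FC mice. In NoFR mice it was at 11.4, 0, 10.1 and 15.9 CPM, and in FR mice at 63.3, 33.8, 21.8 and 9.91 CPM. The NoFR mice lay below all NoFC mice but overlapped with FC 3 and FR 4. The value of 0 in NoFR 2 allows up to 15.99 CPM without TMM scaling, the level of 3 UMIs in that mouse. This bound covers counting error only and is not on the TMM scale of the values beside it. Bhlhe40 was at log2 -1.80 in NoFR against NoFC (SE 0.54, edgeR adjusted p = 0.103), -1.55 against FC (SE 0.59, edgeR adjusted p = 0.416) and 1.46 in FR against NoFR (SE 0.59, edgeR adjusted p = 0.743), so it passed in no pair, though without FR 4 it did in the first (adjusted p = 0.0353). Bhlhe41 had 19 UMIs in all NoFC pericytes and 2 in all NoFR pericytes, a log2 of -2.52 at the lower filter (SE 1.00, edgeR adjusted p = 0.453).

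The ROR genes showed small differences between group means. Rora had group means of 1476, 1419, 1302 and 1406 CPM and log2 fold changes between -0.16 and 0.09 over the 6 pairs of groups. Rorb had means of 77.6, 77.7, 86.3 and 101 CPM and log2 fold changes between 0.04 and 0.30, with SEs of 0.24 to 0.29. Its NoFR mice ran from 41.8 to 139 CPM. Neither had an unadjusted p under 0.05 in any pair, with a smallest adjusted p of 0.769 for Rora and 0.908 for Rorb in the edgeR fit. The standard errors of Rora were the smallest of the 6 genes at the default filter, from 0.11 to 0.13 on the log2 scale. In simulated pericyte counts, 0% of 199 genes changed 1.5-fold were called in NoFR against NoFC, and 35.7% of those changed 2-fold. The lack of calls therefore does not show that the ROR genes kept their level.

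**Figure D4:**
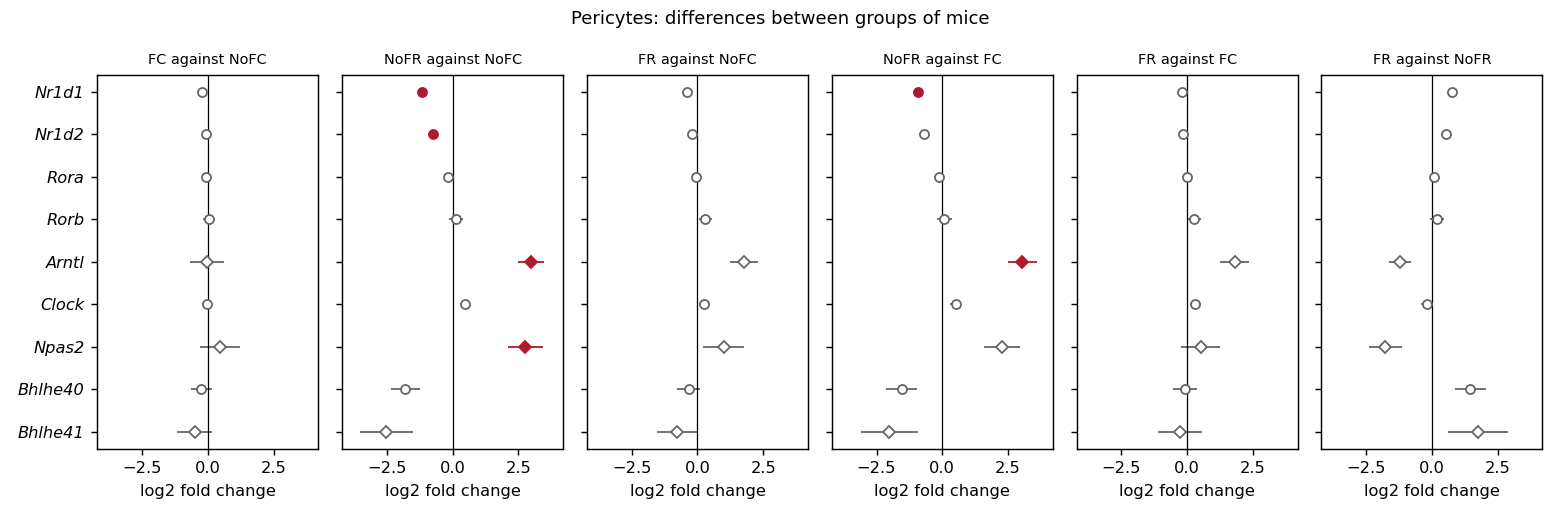
Log2 fold change in pericytes for the 9 genes in the 6 pairs of groups, from edgeR fits over 16 mice, with bars of 1 SE. Circles are values at the default filter, diamonds those at the lower filter, which Arntl and Npas2 passed by their NoFR mice, and filled red points passed an adjusted p of 0.05. Nr1d1 (-1.16) and Nr1d2 (-0.74) lie below 0 and Arntl (2.99) and Npas2 (2.76) above it in NoFR against NoFC, and Rora stays close to 0.

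The remaining pairs held no call among the 9 genes. In FC against NoFC, FR against NoFC and FR against FC, no gene of all 6539 passed edgeR's adjusted p of 0.05 (0%), although 298, 418 and 317 genes had an unadjusted p under 0.05. Of the 6 genes at the default filter, 0, 1 and 0 had such a p, the 1 being Nr1d1, and DESeq2 called none of them. In FR against NoFR 0.0918% of all genes passed (0.0612% higher, 0.0306% lower) and 3 of the 6 genes had an unadjusted p under 0.05, with none called by edgeR or by DESeq2.

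The direction held within libraries. In library 1, with 2 mice of each group, mean Nr1d1 was 320, 289, 141 and 261 CPM for NoFC, FC, NoFR and FR, and mean Arntl was 8.61, 4.18, 59.2 and 20.2 CPM. In library 3, Nr1d1 was at 365 in the NoFC mouse, 180 in the 2 NoFR mice and 281 CPM in the FR mouse, and Arntl at 9.35, 60.3 and 26.4 CPM. Library 2 held no NoFR mouse and gave no value for that group. For Npas2 the NoFR mean was 43.8 CPM in library 1 and 18.8 CPM in library 3, in the latter beside an FR mouse at 16.5 CPM.

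Arntl, Npas2 and the DEC genes are higher in astrocytes, so stray astrocyte RNA was measured in the same pericytes. The 7 astrocyte markers other than Atp1b2 summed to 0.648 to 1.22% of their astrocyte level in NoFC mice, 0.664 to 1.59% in FC, 0.983 to 1.72% in NoFR and 0.668 to 1.51% in FR mice, and Gfap was at 0. The ranges overlapped, and the median sum was highest in NoFR, at 82.0 CPM against 53.1 in NoFC, 67.6 in FC and 69.3 CPM in FR. Its part in the differences of these genes was not tested. Smooth muscle markers summed to 132 to 492 CPM in NoFC, 66.8 to 407 in FC, 53.3 to 593 in NoFR and 36.6 to 764 CPM in FR mice. The median UMIs per pericyte were 5033 to 5549 in NoFC, 4917 to 5349 in FC, 4566 to 5178 in NoFR and 4797 to 5293 in FR mice.

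Other clock genes moved in the pericytes of the NoFR mice as well. Of the period and cryptochrome genes, 3 of 4 tested fell in NoFR against NoFC and none rose: Per1 by 1.11, Per2 by 1.71 and Per3 by 1.70 on the log2 scale (edgeR adjusted p = 0.0353, 0.00168 and 0.00960). All 3 of the PAR bZIP genes tested fell, Dbp by 2.13, Tef by 1.63 and Hlf by 1.01 (edgeR adjusted p = 2.57e-11, 1.65e-06 and 1.37e-05). These are genes that the ARNTL pair switches on, as it does Nr1d1 and Nr1d2. None of 6 other clock regulators and none of 5 REV-ERB and ROR cofactors passed. Of the targets list, Clock alone was tested at the default filter and did not pass. The medians of the first 4 lists were -1.41, -1.63, -0.08 and 0.09, against a median over all genes of -0.00305.

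Against FC the same families gave fewer calls. Per2 fell by 1.46, Dbp by 1.65, Tef by 1.32 and Hlf by 0.97 (edgeR adjusted p = 0.0475, 2.09e-06, 0.00121 and 0.000341). In FR against NoFR, Dbp rose by 1.35 and Hlf by 0.73 (edgeR adjusted p = 0.000300 and 0.0338). In FR against NoFC no gene was called at the default filter, which Dbp passed. At the lower filter, added after the data were seen, Dbp fell by 0.80 (edgeR adjusted p = 0.0398) and was the only gene called (0.00976% of 10251). The comparisons share mice and are not independent of one another.

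In astrocytes none of the 9 genes was called between groups, in a comparison with far fewer cells. At least 5 hashtagged astrocytes were held by 11 mice (2 NoFC, 2 FC, 4 NoFR and 3 FR), with 5 to 159 cells each, and 3286 genes including all of the 9 but Arntl passed the filter. Nr1d1 was at 92.9 and 76.2 CPM in the NoFC mice and at 87.8 and 181 CPM in the FC mice. In the NoFR mice it was at 88.3, 108, 100.1 and 213 CPM, and in the FR mice at 150, 155 and 82.6 CPM. The NoFR astrocytes were thus not the lowest for Nr1d1, as their pericytes were, though the highest value, in NoFR 4, rests on 6 UMIs. Arntl was at 92.9 and 65.3 CPM in NoFC, 77.7 and 43.0 in FC, 29.4, 68.8, 66.7 and 35.4 in NoFR and 174, 48.1 and 74.3 CPM in FR mice, and all groups overlapped.

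No member had an unadjusted p under 0.05 in any of the 6 pairs, and DESeq2 called none. The smallest p was that of Rora in NoFR against NoFC, at log2 -0.59 (SE 0.34, edgeR adjusted p = 0.966). Of all genes, 0.0304% were called in FC against NoFC, 0.0609% in NoFR against NoFC, 0.0304% in FR against NoFC and 0% in the other pairs, and 88 to 128 genes had an unadjusted p under 0.05. Standard errors of the 8 genes tested reached 0.86 on the log2 scale. In simulated astrocyte counts, 0.5% of 197 genes changed 2-fold, drawn at random from the genes tested, were called in NoFR against NoFC. The lack of calls in astrocytes therefore does not show that these genes kept their level there. With a hashtag minimum of 5 UMIs, 784 astrocytes of all 16 mice could be used, at 7 to 266 per mouse. Mean Arntl was then 71.8, 56.5, 42.7 and 69.6 CPM and mean Nr1d1 79.3, 90.1, 99.0 and 88.1 CPM in NoFC, FC, NoFR and FR, without TMM scaling.

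**Figure D5:**
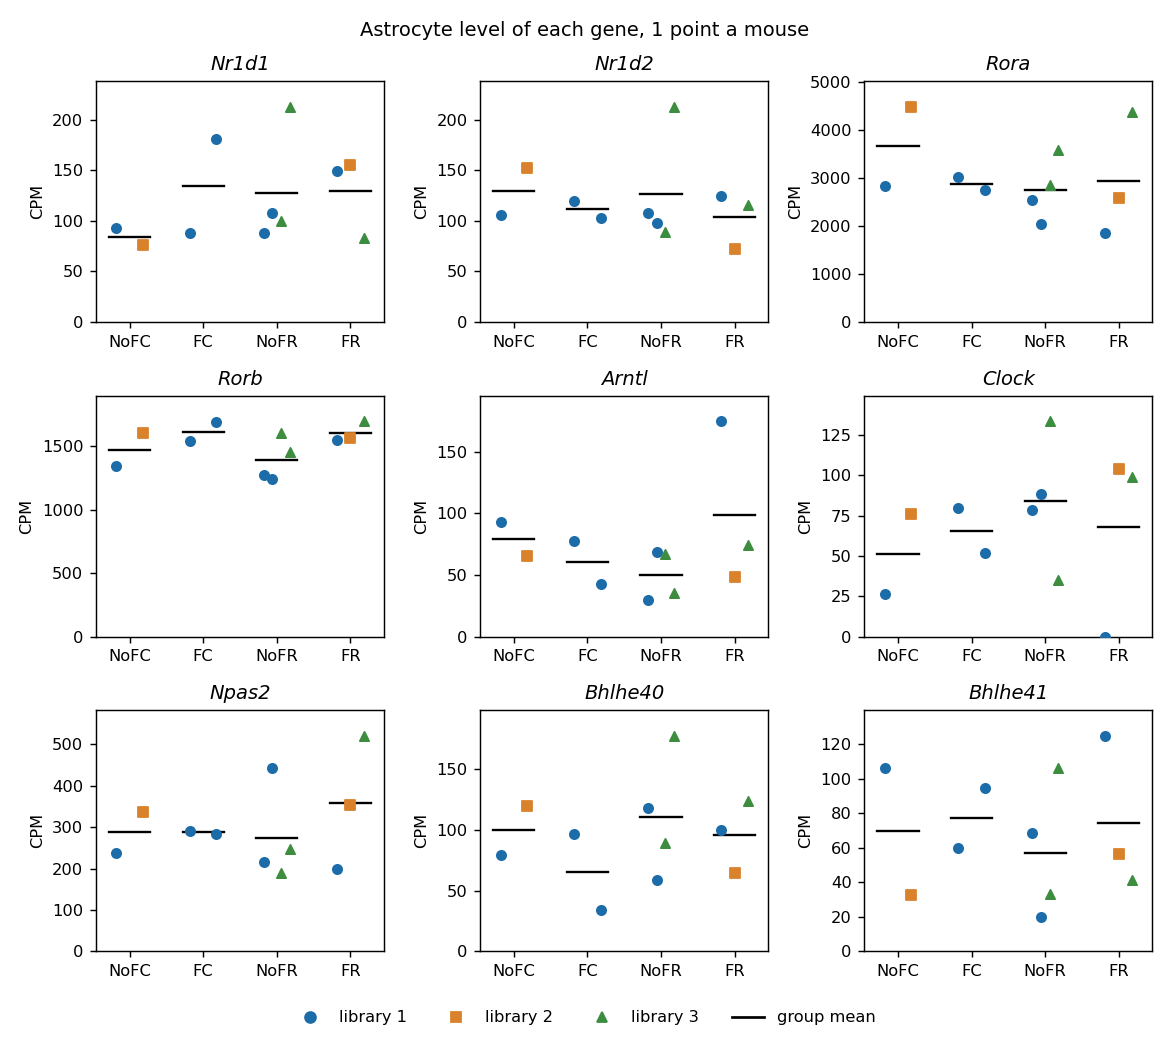
Level of each of the 9 genes in astrocytes of the 11 mice with at least 5 hashtagged astrocytes, in CPM, with 1 point per mouse, shape and colour for the library and a line at the group mean (2 NoFC, 2 FC, 4 NoFR and 3 FR mice). The groups overlap for Nr1d1, and Arntl in the NoFR mice lies at 29.4 to 68.8 CPM.

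Whether the group differences themselves differed between pericytes and astrocytes was tested in the 11 mice with both classes, over 7440 genes. None of the 9 genes passed the adjusted test in any pair at the planned hashtag minimum of 10 UMIs, where 0.0134% of all genes were called in FC against NoFC and in FR against NoFC and 0% in the others. For NoFR against NoFC, 5 of the 9 had an unadjusted p under 0.05. The pericyte minus astrocyte difference was log2 3.82 for Arntl (SE 0.94, edgeR adjusted p = 0.102), 3.26 for Npas2 (SE 0.82, edgeR adjusted p = 0.103) and -1.65 for Nr1d1 (SE 0.59, edgeR adjusted p = 0.987). It was -2.01 for Bhlhe40 (edgeR adjusted p = 0.987) and -2.52 for Bhlhe41 (edgeR adjusted p = 1.0). For NoFR against FC it was 3.87 for Arntl (SE 0.92, edgeR adjusted p = 0.0977), 3.01 for Npas2 (edgeR adjusted p = 0.368) and -2.48 for Bhlhe40 (edgeR adjusted p = 0.822). With the hashtag minimum at 5 UMIs, which brings in more astrocytes, Arntl passed in NoFR against NoFC (log2 3.52, edgeR adjusted p = 0.000722) and against FC (log2 3.39, edgeR adjusted p = 0.00782), and Npas2 in the first (log2 3.02, edgeR adjusted p = 0.0291). The median top hashtag was 4 UMIs in astrocytes and 18 in pericytes, so a minimum of 5 UMIs may give astrocytes to the wrong mouse. Whether it did was not tested. FC 1 held 266 and FR 3 held 192 of these 784 astrocytes.

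The other pairs gave 2 genes with an unadjusted p under 0.05 in FR against NoFC, 1 in FR against FC and 2 in FR against NoFR, all with edgeR adjusted p = 1.0. They were Arntl (log2 2.10) and Nr1d1 (-1.20) in the first, Arntl (2.15) in the second, and Npas2 (-2.13) and Arntl (-1.72) in the third. In FC against NoFC no member had such a p.

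Genes whose level across mice was most like that of Nr1d1 or Arntl were ranked by Pearson's r of log2(CPM + 1), as a description over mice that share groups and libraries. In pericytes of 16 mice, Tef (r = 0.94) and Per2 (0.93), a clock output factor and a period gene, were nearest to Nr1d1, before Pdxk (0.89), Dnaja1 (0.88) and Hlf (0.87). Most opposed to it were Asap2 (-0.88), Rasl11a (-0.82), Psd3 (-0.81), the pericyte marker Pdgfrb (-0.80) and Eif4b (-0.79). For Arntl the nearest were Itga4 (0.84), Prkg1 (0.80), Npy1r (0.79), Cop1 (0.79) and Sema5a (0.78), and the most opposed Gatm (-0.88), Ifi30 (-0.85), Nr1d2 (-0.84), Mthfd1l (-0.82) and Per3 (-0.82). Clock genes thus stood among the nearest to Nr1d1, and Nr1d2 and Per3 among the most opposed to Arntl.

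In astrocytes of 11 mice no member and no gene of the clock lists was among the 5 nearest or the 5 most opposed. The nearest to Nr1d1 were Ubb (0.87), Id4 (0.85), Nedd8 (0.84), Dpysl2 (0.84) and Atp5l (0.84), and the most opposed Vps13d (-0.90), Os9 (-0.89), Zfpm2 (-0.87), Sort1 (-0.86) and Fam214a (-0.85). For Arntl they were Herc4 (0.93), Swt1 (0.86), Sqstm1 (0.84), Ldlrad3 (0.82) and Itm2c (0.82), and Aftph (-0.91), Tcf25 (-0.89), Mro (-0.86), Rnf182 (-0.86) and Atrn (-0.82). The counts behind these values were low, 1 to 122 UMIs of Arntl per mouse.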

How the data were processed

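Single-cell RNA was measured in 3 pooled libraries of amygdala cells with matched hashtag libraries. The authors deposited whole-number UMI counts per gene and barcode, aligned to mm10. The submitters' notes name Cell Ranger 3.0 and the matrix header 7.0.0. Per the labels the libraries are pools, and mice were taken from the authors' table of hashtags. A cell was given to a mouse where its top hashtag had at least 10 UMIs and 3 times the next. No doublet caller was run, and barcodes with both classes' gate genes stayed outside both. Counts were summed per library and class, or per mouse and class (at least 5 cells), and tested with edgeR 4.0.16 (R 4.3.3, Python 3.11.15): TMM, filterByExpr, quasi-likelihood, library as covariate, Benjamini-Hochberg adjustment over all genes tested, threshold 0.05. The class comparison used library as a block and left out the 4 gate genes. The difference between classes used mouse as a block. All 9 genes were named, with fold and test where the unadjusted p was under 0.05. From the other clock lists, genes called between groups were named, and in the class comparison the 2 called genes of each list with the largest change, of which 1 is not reported here. Members and lists were chosen with earlier results of these data known. Scripts were tested on simulated data. Positions come from GENCODE vM21. Alternatives included DESeq2 1.42.0, other filters, hashtag minima, gates and leaving out each mouse. The filter at a count of 3 and any number of cells per mouse were added after seeing the data.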

Additional observations from a re-analysis of the deposited data

Results flagged for a closer look

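In 45 groups of 4 mice tested for a sample far from the others, 3 had one, and chance gives about 5% of groups. Nr1d1 in astrocytes of NoFR mouse 4 was at 213 CPM against 88.3 to 108 CPM in the other 3 mice. Nr1d2 in the same cells was also at 213 CPM, against 88.9 to 108 CPM. Each rests on 6 UMIs in 9 cells, and the cause was not tested. Npas2 in pericytes of NoFC mouse 2 was at 11.5 CPM against 2.87 to 3.45 CPM in the others, from 3 UMIs.

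Cells also carried hashtags for which the table lists no mouse, and their group is unknown. Pericytes of 11 such hashtags with at least 20 cells each (523 cells, 21 to 78 per hashtag) had Arntl above the highest NoFC mouse (10.5 CPM, all values here without TMM scaling) in 10 of 11. The highest FC mouse was at 11.1 CPM, which hashtag 11 of library 3 did not reach. In library 1 Arntl was at 18.2 CPM for hashtag 5 and 43.6 CPM for hashtag 6. In library 2 it was at 25.7 CPM for hashtag 3, 82.5 CPM for hashtag 11 and 94.5 CPM for hashtag 12. In library 3 it was at 75.3 CPM for hashtag 8, 6.50 CPM for hashtag 9 and 10.97 CPM for hashtag 11. In the same library it was at 36.9 CPM for hashtag 13, 52.3 CPM for hashtag 14 and 41.5 CPM for hashtag 15. These values rest on 1 UMI (hashtag 9 of library 3) to 29 UMIs (hashtag 12 of library 2). Nr1d1 in the same cells was at 86.6 to 309 CPM with a median of 164 CPM. No group can be given to these cells, and they entered no comparison.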

How the results depend on the processing

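Where a member's fold change is printed with its test in the report, no alternative turned its sign, and 804 of 840 such values kept their side of the threshold (22 lost it, 14 gained it). A value without an adjusted p was counted as kept. Genes of the other clock lists were not part of this count. Nr1d1 in NoFR against NoFC was called under all 27 alternatives, at log2 -1.30 to -0.96 (edgeR adjusted p, or DESeq2's, 1.72e-09 to 0.00175). The class comparison called all 9 genes under each alternative, without the library as replicate block too, except that sums per mouse with the mouse as replicate block tested and called 7, and there 3168 genes in all were called against 12230. In pericytes the default filter tested 6 of the 9 genes and called 2 in NoFR against NoFC. This became 1 with DESeq2, 4 with a hashtag minimum of 5 UMIs, 1 in library 1 alone and 1 to 4 when a mouse was left out. The filter was applied anew under each alternative, here and in the pairs below. These counts can therefore include genes that the main fit left out and that passed by their NoFR mice. Over all genes the 70 called became 39 with DESeq2, 79 with the hashtag minimum of 5 UMIs and 26 in library 1 alone. With no filter 5 were called and with the filter at 3, 4, where over all genes 80 and 63 were called. These settings tested all 9 genes, and their calls include Arntl and Npas2, which the default filter left out. Of all genes tested, 1.07% were called at the default filter and 0.615% at the filter of 3. At the filter of 3 the 4 became 1 with DESeq2, 1 in library 1 alone, 2 with a hashtag minimum of 20 UMIs, and 2 to 5 with a mouse left out. DESeq2 gave no adjusted p there for Arntl and Npas2. In NoFR against FC the 1 became 2 with no filter, 2 with the filter at 3, 2 without a library term, 3 with a hashtag minimum of 5 UMIs, and 0 to 3 with a mouse left out. Over all genes the 29 called became 55 with no filter, 26 with the filter at 3, 43 without a library term and 36 with the hashtag minimum of 5 UMIs. At the filter of 3 the 2 became 1 with the stricter gate, 0 with a hashtag minimum of 20 UMIs, and 1 to 2 with a mouse left out. In FR against NoFR the 0 became 1 with no filter and 0 to 1 with a mouse left out, at either filter. Over all genes the 6 called in that pair became 18 with no filter. In the difference between classes, NoFR against NoFC went from 0 to 2 and NoFR against FC from 0 to 1 with a hashtag minimum of 5 UMIs, and NoFR against FC to 1 with no replicate block. The cause of these moves was not tested.

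Nr1d2 in NoFR against NoFC was lost with DESeq2 (adjusted p = 0.0690) and in library 1 alone (0.330). Arntl in that pair was lost in library 1 alone (0.0858) and with the hashtag minimum of 20 UMIs (0.0766), as was Npas2 (0.254 and 0.354). DESeq2 at the lower filter gave no adjusted p for Arntl or Npas2 in that pair, so it gave no verdict on them. These are not among the losses counted above, where a value without an adjusted p was counted as kept. The calls of Arntl and Npas2 therefore rest on edgeR alone. In NoFR against FC, Nr1d1 was lost without FC 2 (0.0604), without NoFR 1 (0.139) and with the hashtag minimum of 20 UMIs (0.0971), where Nr1d2 was gained (0.0408). Nr1d2 was also gained without a library term (0.00211), with the hashtag minimum of 5 UMIs (0.0433) and without FR 4 (0.0408). Arntl in that pair was lost without NoFR 2 (0.0571), with the stricter gate (0.0578) and with the hashtag minimum of 20 UMIs (0.0849). Bhlhe40 in NoFR against NoFC was called with no filter (0.0294), with the hashtag minimum of 5 UMIs (0.0232) and without FR 4 (0.0353). Over all genes, the 70 called in NoFR against NoFC became 39 with DESeq2, 25 with the hashtag minimum of 20 UMIs and 26 in library 1 alone. The 29 in NoFR against FC became 17 with DESeq2, 55 with no filter, 16 with the hashtag minimum of 20 UMIs, 17 with the stricter gate and 19 in library 1 alone.

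No paired analysis was possible because mice of different groups share no animal, and a mouse number only names a mouse. A minimum of 20 astrocytes per mouse could not be fitted. Depth limits Arntl, Npas2 and the DEC genes in pericytes, at 0 to 21 UMIs per mouse.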

Other observations

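The 2529 barcodes in neither class, at a median of 761 UMIs, held all 9 genes. In libraries 1, 2 and 3, Nr1d1 was at 118, 125 and 144 CPM and Arntl at 49.9, 45.3 and 55.2 CPM, without TMM scaling. Both genes lay between their levels in pericytes and astrocytes in each library, and no cell type is given to these barcodes.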
